A study of Mus musculus with 12 samples.

Results

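The interferon-inducible GTPases described here are 10 genes of the immunity-related GTPase (IRG) and guanylate-binding protein (GBP) families: Iigp1, Igtp, Irgm1, Irgm2, Tgtp1, Tgtp2, Ifi47, Gbp2, Gbp3 and Gbp4. They were found by gene symbol among the 11022 genes of the deposited expression table, and all 10 had a row there. The set was chosen from genes whose levels in these same samples were already known, so their levels, differences and calls are given as a description, with no p value, and no count over the 10 is support for a change of the family. IRG and GBP proteins are large GTPases that cells make when interferon binds its receptor, through the kinases JAK1 and JAK2 and, in a later step, the transcription factor IRF1. They coat the vacuoles in which parasites such as Toxoplasma gondii and bacteria such as Chlamydia live, and break them open. In T cells, Irgm1 is known to protect dividing CD4 T cells from the harm that interferon gamma can do.

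RNA was measured in mouse cytotoxic T lymphocytes (CTL), CD8 T cells that carry the P14 transgenic T cell receptor (TCR) for the viral peptide gp33. Per the study's methods, the P14 mice were females of 9 to 13 weeks, and lymph nodes or spleens of 3 mice gave the biological replicates. The cells were activated for 48 h with gp33, IL-2 and IL-12 and then expanded for 5 days in IL-2, so every group had met its antigen before the experiment and was kept in IL-2 at 20 ng/mL. The 4 groups of 3 samples were Unstimulated, TCR (gp33 at 100 ng/mL for 4 h), TCR + PI3Kdi (the same peptide with 10 µM IC87114, which inhibits PI3K p110δ, a lipid kinase) and TCR + MEKi (the same peptide with 2 µM PD184252, an inhibitor of MEK1/2, the kinases that activate ERK1/2). All cells share 1 transgenic receptor, and the inhibitors were given only together with the peptide, so neither has a control without stimulation. Values are FPKM (fragments per kilobase of exon, scaled to the sequencing depth), a unit per length in which levels of different genes can be compared.

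Total reads are not part of the table, and an estimate that put low values nearest to whole read numbers gave a depth of 7860000 to 13300000 reads per sample. On that estimate the least covered member value was about 114 reads (Tgtp2 with the MEK inhibitor), and no member was at 0 in any sample. Of the CD8 T cell markers, 9 of 10 had a row, with sums of 12252 to 13405 FPKM in Unstimulated samples and 17249 to 19915 FPKM in the stimulated groups. Most of the sum was Gzmb, at a mean of 8740.3 FPKM in Unstimulated and 13005 in TCR samples. Prf1, Nkg7, Cd8a (221 to 360) and Cd8b1 (245 to 351) also rose. Cd3e (125 to 111) and Cd3g (324 to 258) were lower, and Cd3d (214 to 215) and Thy1 (1081 to 1100.5) were nearly level. No B cell marker of 5 and no erythroid marker of 3 had a row, and of 9 macrophage and dendritic cell markers only Itgax did, at 0.29 to 0.75 FPKM. The sum of Cd4 and Cd40lg, which were 2 of 3 CD4 T cell markers with a row, moved with the groups, from 1.58 to 2.39 FPKM in Unstimulated samples, 113 to 115 after TCR, 48.7 to 53.2 with PI3Kdi and 37.1 to 43 with MEKi. Cd4 itself lay at 0.28 to 3.65 FPKM in all samples, and Cd40lg, which encodes the CD40 ligand, made up most of the sum after stimulation. The sums of 2 of 3 NK cell markers (Klrb1c and Eomes) were 73.2 to 117 FPKM over all samples, most of it Eomes, which activated CD8 T cells also express. Klrb1c was lower after TCR, like the members, at 5.39 ± 0.83 FPKM in Unstimulated and 1.79 ± 0.14 in TCR samples, 2.27 ± 0.21 with PI3Kdi and 1.59 ± 0.31 with MEKi (TCR from Unstimulated -1.53, limma adjusted p = 4.79e-07). The sums of 2 of 4 stroma markers (Col1a1 and Pecam1) were 6.2 to 16.4 FPKM, nearly all of it Pecam1, which was at 11.2 ± 1.2, 12.4 ± 1.3, 6.65 ± 0.79 and 15.3 ± 1.3 FPKM in Unstimulated, TCR, PI3Kdi and MEKi samples. The part of these markers in the results was not tested. Because these are bulk samples, fewer expressing cells and less RNA per cell cannot be told apart.

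The promoters of most members hold the letters that interferon-activated factors bind. The members were chosen as interferon-inducible genes, so such matches go with that choice and are given as a description. Some members are close relatives, so their promoters are not separate observations. Matches were sought on both strands to GAAANNGAA, the core of the interferon-stimulated response element (ISRE) bound by IRF proteins, and to TTCNNNGAA, the gamma-activated sequence (GAS) of interferon gamma target genes. The windows were the RefSeq promoters of GRCm38.p6, from 250 bases before to 50 after each annotated start, and positions are counted from the start. An ISRE match was present in 7 of the 8 members with a promoter in the table, against 8.56% of all 32851 promoters, and a GAS match in 4 of 8, against 8.3% of promoters. Iigp1 and Gbp4 had no promoter there, Ifi47 had neither match, and with the stricter letters GAAANTGAA and TTCCNGGAA the counts were 5 of 8 (2.21% of promoters) and 3 of 8 (1.15%).

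Igtp, Irgm2, Tgtp1 and Tgtp2 carried both motifs in 1 arrangement, in which the GAS match starts 11 bases before the ISRE match on the gene's strand. The 100 bases before each start follow, in lower case 5′ to 3′ on the strand of the gene with the matches in capitals, GAS first and ISRE second.
Igtp: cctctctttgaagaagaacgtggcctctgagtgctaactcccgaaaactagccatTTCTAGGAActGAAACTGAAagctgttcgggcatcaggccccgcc
Irgm2: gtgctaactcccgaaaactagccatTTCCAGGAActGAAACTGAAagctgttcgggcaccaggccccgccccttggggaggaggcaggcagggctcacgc
Tgtp1: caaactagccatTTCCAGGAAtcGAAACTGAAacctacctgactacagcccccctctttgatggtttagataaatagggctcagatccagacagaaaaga
Tgtp2: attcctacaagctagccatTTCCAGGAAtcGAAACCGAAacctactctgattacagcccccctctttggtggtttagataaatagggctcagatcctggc
These stretches lie at chr11:58199456-58199555, plus strand (Igtp), chr11:58214877-58214976, plus strand (Irgm2), chr11:48992247-48992346, minus strand (Tgtp1) and chr11:49064213-49064312, minus strand (Tgtp2). The GAS match begins at -45 in Igtp, -75 in Irgm2, -88 in Tgtp1 and -81 in Tgtp2. The 300-base promoters were compared position by position at the best single shift, without gaps. Those of Igtp and Irgm2 were identical at 184 of 270 bases (68.1%) and those of Tgtp1 and Tgtp2 at 151 of 292 (51.7%). An inserted or missing base lowers such a count, so it understates the likeness of promoters that differ in length between shared stretches. The spacing of 11 bases was noticed after the sequences had been seen. Counted with the ISRE match on either strand, it occurs in 9 of the 32851 promoters (0.0274%). Beside the 4 members, 2 of these 9 had a row in the expression table. Gm12185, which overlaps Tgtp1 on the same strand, was at 6.75 FPKM in Unstimulated and 1.2 in TCR samples, whereas Adar, an RNA-editing enzyme, was at 14.9 and 15.9 FPKM.

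In 3 other members only ISRE matches were found, and their stretches are shown to set beside the 4 above.
Irgm1: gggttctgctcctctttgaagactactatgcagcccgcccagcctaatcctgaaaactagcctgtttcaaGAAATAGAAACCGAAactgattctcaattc
Gbp2: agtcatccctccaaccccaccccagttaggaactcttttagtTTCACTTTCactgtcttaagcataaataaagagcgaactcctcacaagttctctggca
Gbp3: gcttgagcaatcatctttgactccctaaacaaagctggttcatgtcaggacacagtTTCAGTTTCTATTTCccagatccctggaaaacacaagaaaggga
They lie at chr11:48871421-48871520, minus strand (Irgm1), chr3:142620563-142620662, plus strand (Gbp2) and chr3:142559944-142560043, plus strand (Gbp3, the upstream of 2 annotated starts). Irgm1 held overlapping ISRE matches that begin at -30 and -24, Gbp3 held overlapping matches at -44 and -38 on the opposite strand, and Gbp2 held a match at -58 on the opposite strand. The downstream start of Gbp3 had no match. A match of letters is a description and does not show that a factor binds there.

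**Figure D1:**
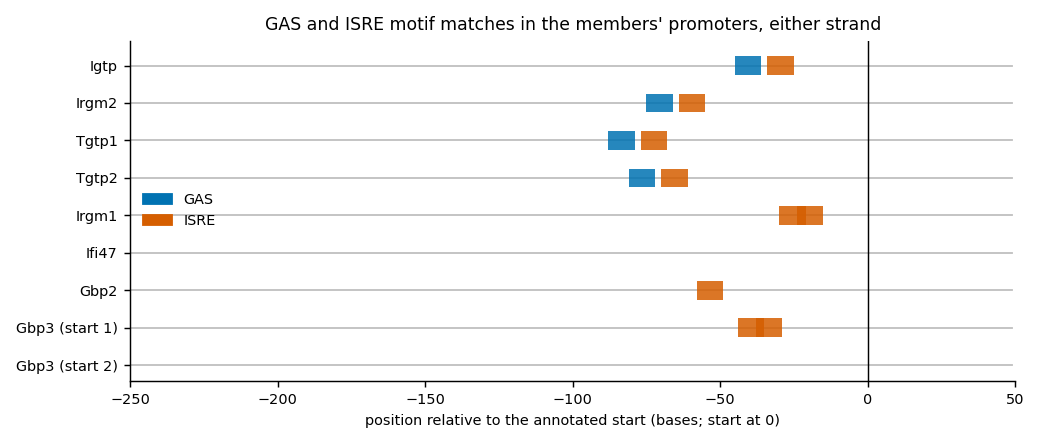
Position of motif matches in the RefSeq promoters of the members, in bases relative to the annotated start at 0, with GAS in blue, ISRE in orange and the searched window as a grey line. Igtp, Irgm2, Tgtp1 and Tgtp2 show a GAS match next to an ISRE match, Irgm1, Gbp2 and the upstream start of Gbp3 show ISRE matches only, and Ifi47 and the downstream start of Gbp3 show none.

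The members differed widely in level in Unstimulated CTL and were together abundant. Their FPKM summed to 869 ± 43.4 (SD, n = 3) in Unstimulated samples, 239 ± 30.1 after TCR, 361 ± 25.8 with PI3Kdi and 276 ± 23.2 with MEKi. Igtp was the highest of the 10 in Unstimulated cells, at 239.6 ± 9.4 FPKM, a level that only 2.45% of the genes in the table reached, and Irgm2 was the lowest at 25.6 ± 1.6 FPKM. After TCR stimulation the highest member was Igtp at 53.4 ± 3.5 FPKM and the lowest was Iigp1 at 4.74 ± 1.4 FPKM, so that Iigp1 moved from the top 11% of genes to the top 67.5%.

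The comparison of TCR with Unstimulated samples asks what antigen does to these mRNAs within 4 h. A gene was called where the limma adjusted p was under 0.05 and the difference over 2-fold. Of the 10 members 9 were called lower after TCR stimulation and Gbp3 was not called, in a comparison in which 11.1% of all 11022 genes were called lower. The median member differed by -2.21 on the log2 scale (range -3.76 to -0.20), beside -0.01 for the median of all genes. When every sample was rescaled to a common FPKM sum, the median of all genes was at -0.41 and that of the members at -2.62, and the same 9 were called.

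**Figure D2:**
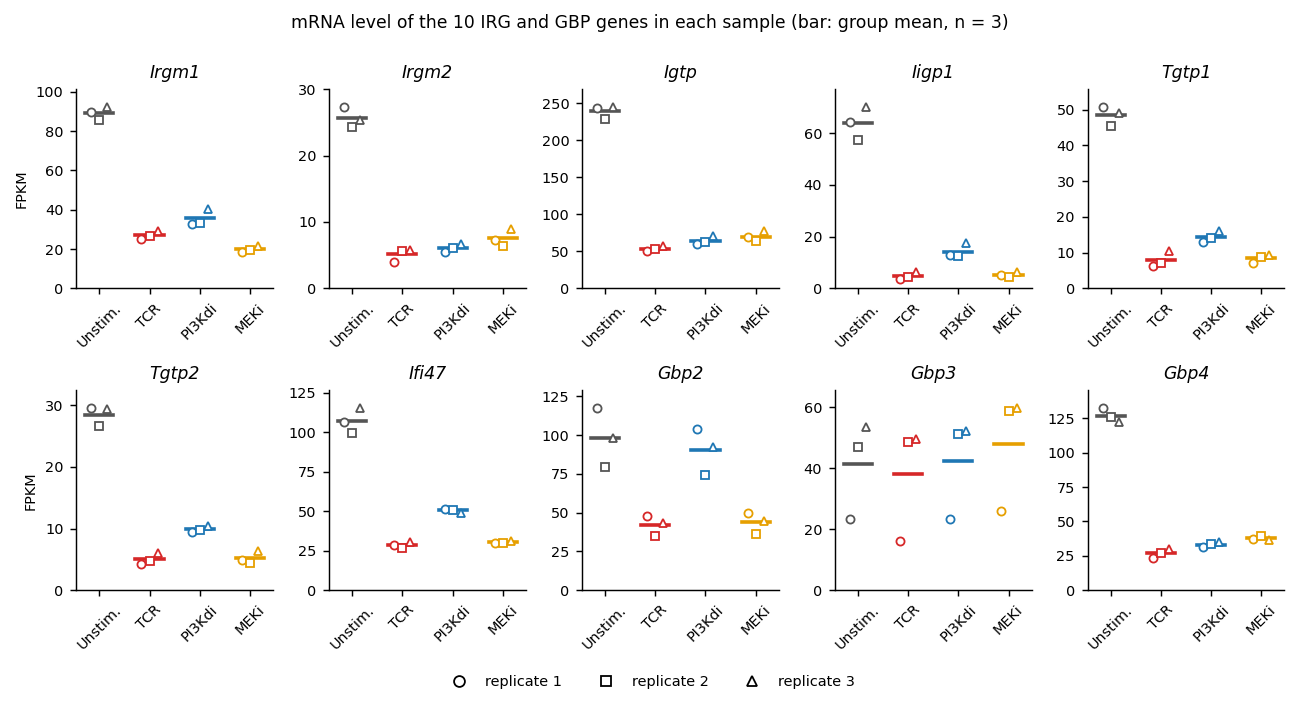
FPKM of each of the 10 members in each of the 12 samples, with 1 panel per gene, a linear axis from 0, symbols for replicate numbers and a bar for the mean of 3 samples. In 9 panels the Unstimulated samples lie above all TCR samples, and the share of all genes for which this held was not counted. In the Gbp3 panel replicate 1 lies below the other replicates in every group.

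Irgm1, Irgm2 and Igtp (also named Irgm3) form the regulatory branch of the IRG family, which sits on the cell's own membranes and holds the effector IRG proteins inactive there. Igtp (chromosome 11, 58199556 to 58207591, GRCm38) was at 244, 229 and 246 FPKM in the Unstimulated samples, 50.3, 52.6 and 57.2 after TCR, 59.7, 62.3 and 70.5 with PI3Kdi, and 69.5, 63.4 and 77.5 with MEKi. All Unstimulated samples lay far above the others, and both inhibitor groups lay above the TCR samples without overlap but overlapped each other. The log2 difference of TCR from Unstimulated was -2.17 (SE 0.08), and those of PI3Kdi and MEKi from TCR were 0.26 and 0.39.

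Irgm2 (chromosome 11, 58199618 to 58222782) overlaps exons of Igtp and shares 3% of its 100-base stretches with it. It was at 27.3, 24.3 and 25.3 FPKM in Unstimulated samples, 4.02, 5.68 and 5.72 after TCR, 5.52, 6.03 and 6.73 with PI3Kdi, and 7.33, 6.45 and 8.87 with MEKi. The MEKi samples were all above the TCR samples, while the PI3Kdi samples overlapped both. Its log2 difference of TCR from Unstimulated was -2.31 (SE 0.14), which left 20.1% of the unstimulated level.

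Irgm1 (chromosome 11, 48861968 to 48871683) was at 89.5, 85.4 and 92.3 FPKM in Unstimulated samples, 24.9, 26.7 and 29.4 after TCR, 33, 33.4 and 40.5 with PI3Kdi, and 18.6, 19.4 and 21.8 with MEKi. No pair of groups overlapped, and the order was Unstimulated, TCR + PI3Kdi, TCR, TCR + MEKi. It was the only member whose mean was lower with MEKi than with TCR alone, at a log2 difference of -0.44 (SE 0.09), with MEKi at 0.748, 0.727 and 0.739 of the TCR value in replicates 1, 2 and 3. PI3Kdi stood at 1.33, 1.25 and 1.38 of the TCR value. Neither inhibitor difference reached 2-fold, and on the common FPKM sum the difference of MEKi from TCR was -0.18 and these groups overlapped.

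Iigp1, Tgtp1, Tgtp2 and Ifi47 belong to the effector branch, whose proteins load onto vacuoles of intracellular pathogens. Iigp1 (chromosome 18, 60376027 to 60392634), the protein of which is also called Irga6, was at 64.4, 57.3 and 70.2 FPKM in Unstimulated samples and at 3.61, 4.23 and 6.37 after TCR. With PI3Kdi it was at 13, 12.4 and 17.4 FPKM, and with MEKi at 5.32, 4.48 and 6.27. The PI3Kdi samples lay between the other groups without overlap, and the MEKi samples lay within the range of the TCR samples. It had the lowest difference of TCR from Unstimulated among the members, -3.76 (SE 0.18), with 7.36% of the unstimulated level left after TCR, 22.2% with PI3Kdi and 8.47% with MEKi.

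Tgtp1 (chromosome 11, 48985327 to 48994172) and Tgtp2 (chromosome 11, 49057194 to 49064206) encode Irgb6 and are near copies, and their split is uncertain because 70.3% of the 100-base stretches of Tgtp1 transcripts occur in Tgtp2 and 76.8% of those of Tgtp2 in Tgtp1. Tgtp1 was at 50.8, 45.3 and 49.1 FPKM in Unstimulated samples, 6.2, 7.1 and 10.6 after TCR, 12.9, 14.2 and 16.1 with PI3Kdi, and 7.22, 8.71 and 9.39 with MEKi. Tgtp2 was at 29.5, 26.6 and 29.4 FPKM, then 4.22, 4.79 and 6.05, then 9.44, 9.79 and 10.4, and then 4.95, 4.45 and 6.29 in the same groups. Both had the order seen for Iigp1, with PI3Kdi above TCR without overlap and MEKi overlapping TCR. The log2 differences of TCR from Unstimulated were -2.62 (SE 0.16) for Tgtp1 and -2.50 (SE 0.13) for Tgtp2.

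Ifi47 (chromosome 11, 49076587 to 49096974), which encodes Irgd and overlaps the olfactory receptor gene Olfr56 on the same strand, varied little within groups. It was at 106, 99.2 and 115 FPKM in Unstimulated samples, 28.6, 26.9 and 30.3 after TCR, 51.7, 50.5 and 49.1 with PI3Kdi, and 30.1, 29.9 and 31.1 with MEKi. PI3Kdi samples thus stood well above both other stimulated groups, between which the values overlapped. Its log2 difference of TCR from Unstimulated was -1.90 (SE 0.06), and 47.3% of the unstimulated level remained with PI3Kdi against 26.8% with TCR alone.

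GBP proteins work with the IRG effectors at vacuoles and also bind bacteria in the cytosol. Gbp4 (chromosome 5, 105115767 to 105139586), which overlaps exons of Gbp8 and Gbp9, was at 132, 126 and 122 FPKM in Unstimulated samples, 23.1, 27.3 and 29.9 after TCR, 31.3, 33.6 and 34.8 with PI3Kdi, and 37.2, 39.6 and 36.2 with MEKi. The 4 groups did not overlap, and MEKi was the highest of the stimulated groups. Its log2 difference of TCR from Unstimulated was -2.25 (SE 0.08).

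Gbp2 (chromosome 3, 142620602 to 142638008), a GBP that coats the vacuole of Toxoplasma, was close to its unstimulated level when PI3K p110δ was inhibited. It was at 117, 79.6 and 98.5 FPKM in Unstimulated samples, 47.5, 35 and 43.5 after TCR, 104, 74.4 and 92.4 with PI3Kdi, and 50.1, 36.1 and 44.9 with MEKi. Unstimulated and PI3Kdi samples overlapped, TCR and MEKi samples overlapped, and the first pair lay above the second pair. TCR samples held 42.9% of the unstimulated level and PI3Kdi samples 91.9%, and the log2 difference of TCR from Unstimulated was -1.22 (SE 0.16). In every group replicate 2 was the lowest and replicate 1 the highest, so that the ratios within replicate numbers varied less than the levels, with PI3Kdi at 2.18, 2.13 and 2.12 of the TCR value.

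Gbp3 (chromosome 3, 142560026 to 142573209) was the member whose groups all overlapped in level. It was at 23.4, 46.9 and 53.5 FPKM in Unstimulated samples, 16.1, 48.6 and 49.7 after TCR, 23.4, 51.1 and 52.4 with PI3Kdi, and 26, 58.7 and 59.6 with MEKi. Replicate 1 was the low sample in each group, at 0.465, 0.328, 0.453 and 0.44 of the mean of the other replicates. Among 7489 genes with a mean of at least 5 FPKM, Gbp3 ranked 4 by the mean deviation of a replicate number from its group means (0.84 on the log2 scale), after Wdfy1, Ubxn11 and Asb2, whereas Gbp2 ranked 64 and Ifi47 ranked 3824. Its log2 difference of TCR from Unstimulated was -0.20 (SE 0.45), and with the replicate number as a block the SE was 0.09 and the gene was not called in any of the 6 comparisons. Within replicate numbers the values were less spread, with MEKi at 1.61, 1.21 and 1.2 and PI3Kdi at 1.45, 1.05 and 1.05 of the TCR value, and MEKi at 1.11, 1.15 and 1.14 of the PI3Kdi value, so that each of these ratios was above 1 in all 3 replicate numbers.

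**Figure D3:**
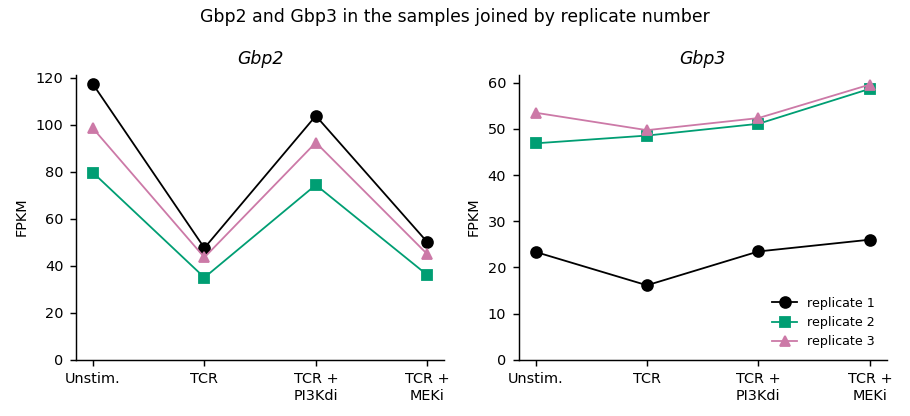
FPKM of Gbp2 (left) and Gbp3 (right) in the 4 groups, with the samples of each replicate number joined by a line and a linear axis from 0. The Gbp2 lines run in parallel with replicate 2 lowest, and the Gbp3 line of replicate 1 runs between 16.1 and 26 FPKM, below the lines of replicates 2 and 3.

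With PI3Kdi, 8 of the 10 members were still called lower than in Unstimulated samples, in a comparison in which 7.43% of all genes were called lower, and the exceptions were Gbp2 and Gbp3. The median member was at -1.63 on the log2 scale. With MEKi, 9 were called lower than in Unstimulated samples, beside 6.46% of all genes, the exception was Gbp3, and the median was -1.79. These comparisons and that of TCR share the Unstimulated samples, so their values are set side by side only. Ifi47 with PI3Kdi, at a log2 difference of -1.08, lay just past the 2-fold threshold.

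**Figure D4:**
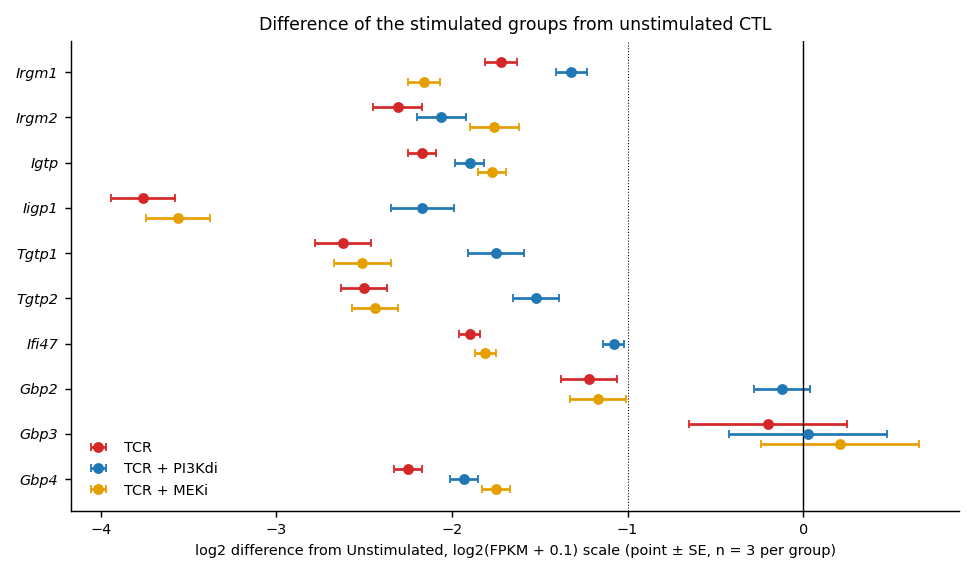
Log2 difference of each stimulated group from Unstimulated for the 10 members, on the log2(FPKM + 0.1) scale, as a point with its SE from the fit (n = 3 per group). The solid line marks no difference and the dotted line a 2-fold lower level. TCR points lie between -3.76 and -0.20, and PI3Kdi points lie farthest to the right of TCR for Iigp1 and Gbp2.

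The comparison of TCR + PI3Kdi with TCR asks how these mRNAs differ when PI3K p110δ is inhibited during stimulation. Without a group given the inhibitor but no peptide, a changed TCR response and an effect on IL-2 cultured cells cannot be told apart. Of the 10 members 2 were called higher with the inhibitor, Iigp1 (log2 difference 1.59, SE 0.18) and Gbp2 (1.1, SE 0.16), where 0.499% of all genes were called higher. The mean of all 10 was above that of TCR, by a median of 0.61 beside 0.02 for all genes, and in 8 members each PI3Kdi sample lay above each TCR sample, which held for 19.0% of all genes. The exceptions were Irgm2 and Gbp3. Below the 2-fold threshold were Tgtp2 (0.98, SE 0.13), Tgtp1 (0.88, SE 0.16) and Ifi47 (0.82, SE 0.06), followed by Irgm1 (0.40, SE 0.09), Gbp4 (0.32, SE 0.08), Igtp (0.26, SE 0.08), Irgm2 (0.25, SE 0.14) and Gbp3 (0.23, SE 0.45). Gbp2 lost its call without TCR replicate 2 (0.97) or without TCR + PI3Kdi replicate 1 (0.99). Leaving out these samples shifts a group mean, since replicate 2 of Gbp2 was the lowest and replicate 1 the highest in every group. With the replicate number as a block Gbp2 kept its call (SE 0.05). Both Gbp2 and Iigp1 lost their calls when the test was made against a 2-fold difference. Tgtp1 and Tgtp2 were called without TCR replicate 3 (1.1 and 1.12) and after rescaling to a common FPKM sum (1.06 and 1.15), which moved the median of all genes to 0.19, and Tgtp2 also without TCR + PI3Kdi replicate 1 (1.01).

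The comparison of TCR + MEKi with TCR asks the same for inhibition of MEK1/2, with the same limit. No member was called in either direction, where 3.49% of all genes were. The median member was at 0.16, beside 0.01 for all genes. The values were 0.55 (SE 0.14) for Irgm2, 0.50 (SE 0.08) for Gbp4, 0.41 (SE 0.45, or 0.09 with the replicate block) for Gbp3, 0.39 (SE 0.08) for Igtp and -0.44 (SE 0.09) for Irgm1, and between 0.05 and 0.20 for Gbp2, Tgtp2, Ifi47, Tgtp1 and Iigp1. On the common FPKM sum the median of all genes was at 0.26 and that of the members at 0.41, and again none was called.

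Set against each other, the inhibitor groups split the members. Iigp1 (-1.39, SE 0.18) and Gbp2 (-1.04, SE 0.16) were called lower with MEKi than with PI3Kdi, where 1.71% of all genes were called lower. In 6 members, these and Irgm1 (-0.83), Tgtp1 (-0.77), Tgtp2 (-0.92) and Ifi47 (-0.73), every MEKi sample lay below every PI3Kdi sample, which held for 22.7% of all genes. Gbp4 lay the other way without overlap (0.18), and Igtp (0.13), Irgm2 (0.30) and Gbp3 (0.18) had higher means with MEKi in samples that overlapped. The call of Gbp2 was lost without TCR + MEKi replicate 2 (-0.91), without TCR + PI3Kdi replicate 1 (-0.94) and on the common FPKM sum (-0.96). With the replicate number as a block the call of Gbp2 was kept (SE 0.05). Tgtp2 was called without TCR + MEKi replicate 3 (-1.06).

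The same differences are given by the gene clusters in which the family lies, a grouping made after the values were known and given without a test. In the proximal cluster of chromosome 11 (48861968 to 49096974), which holds Irgm1, Tgtp1, Tgtp2, Ifi47 and the further gene 9930111J21Rik1, all 5 genes had lower means with MEKi than with PI3Kdi (-0.92 to -0.26), and the samples of 9930111J21Rik1 overlapped. The cluster of chromosome 18 (60212080 to 60392634) with Iigp1 and 3 further genes had 4 of 4 lower means (-1.39 to -0.14), but only Iigp1 did so without overlap of the samples, and Gm4951 (-0.51, SE 0.28), Gm4841 (-0.63, SE 0.27) and F830016B08Rik (-0.14, SE 0.35) rested on few reads. In the distal cluster of chromosome 11 (58187739 to 58222782), Igtp, Irgm2 and Gm12250 all had higher means with MEKi (0.13 to 0.30), each with overlapping samples. Of the 6 GBP genes on chromosome 5 (105014150 to 105346472) 5 had higher means with MEKi, of which Gbp4, Gbp6 and Gbp8 did not overlap. The 4 on chromosome 3 (142493978 to 142638008) did not go together, with 2 lower and 2 higher means (-1.04 to 0.94). There Gbp2 (-1.04) and Gbp7 (-0.23) were lower and Gbp5 (0.94) higher without overlap, and Gbp3 overlapped. For all genes the median was -0.01, and the share that lay higher without overlap was not counted. The GAS and ISRE arrangement printed above was found in Igtp and Irgm2 and in Tgtp1 and Tgtp2, and a link between it and these differences was not tested.

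**Figure D5:**
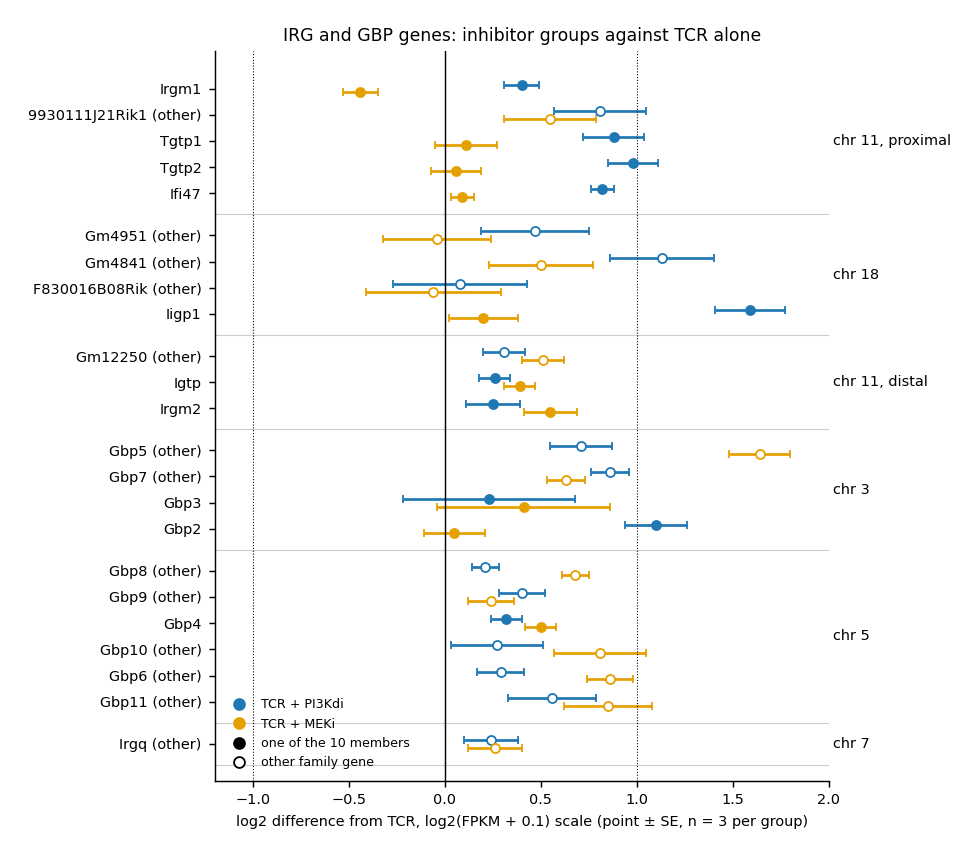
Log2 difference from TCR of TCR + PI3Kdi (blue) and TCR + MEKi (orange) for the 10 members (filled) and the 13 other IRG and GBP genes of the table (open), with SE from the fit (n = 3 per group), grouped by gene cluster. Blue lies to the right of orange for the genes of chromosome 18 and of the proximal cluster of chromosome 11, and to the left of it for most genes of chromosome 5 and of the distal cluster of chromosome 11. On chromosome 3 blue lies to the right for Gbp2 and Gbp7 and to the left for Gbp3 and Gbp5.

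Of 18 other IRG and GBP genes listed, 13 had a row, and 10 of these were called lower after TCR, where 11.1% of all genes were. The median was -2.20 over the 13 beside -0.01 for all genes. On chromosome 5, Gbp6 was at 61.1 ± 5.4 FPKM in Unstimulated and 8.43 ± 1.3 in TCR samples (log2 difference -2.85, SE 0.12, limma adjusted p = 1.55e-11), and Gbp8 was at 26.2 ± 1.1 and 11.8 ± 0.64 FPKM (-1.15, SE 0.07). Gbp9 was at 18 ± 1.3 and 5.67 ± 0.67 FPKM, Gbp10 at 8.57 ± 0.31 and 1.89 ± 0.81, and Gbp11 at 7.68 ± 1.2 and 0.837 ± 0.23. Reads of Gbp6 and Gbp10 are uncertain, since 59% and 63.6% of their stretches also occur in Gm43302. Gbp7 on chromosome 3 was at 48 ± 1.6 and 10.3 ± 1.5 FPKM (-2.22, SE 0.10), and Gm12250, an IRG gene next to Igtp, at 48.8 ± 3.6 and 5.55 ± 0.95 FPKM (-3.13, SE 0.11, limma adjusted p = 4.04e-12). On chromosome 18 Gm4951 was at 5.82 ± 0.52 and 0.5 ± 0.24 FPKM and Gm4841 at 2.18 ± 0.41 and 0.0967 ± 0.023, the latter near 3 reads in the TCR samples, so that the size of its change is not given. The gene 9930111J21Rik1, which shares 69.4% of its stretches with 9930111J21Rik2, was at 1.62 ± 0.087 and 0.437 ± 0.076 FPKM.

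The other 3 family genes were not called. Gbp5, a GBP known for promoting inflammasome activity, was at 7.63 ± 1.8 FPKM in Unstimulated and 4.48 ± 0.63 in TCR samples (-0.74, SE 0.16), F830016B08Rik was at 0.44 ± 0.14 and 0.173 ± 0.072 FPKM, and Irgq, an IRG-related gene on chromosome 7, was at 2.11 ± 0.17 and 2.25 ± 0.25 FPKM. Against TCR alone, 1 of the 13 was called higher with PI3Kdi, Gm4841 at 0.353 ± 0.19 FPKM, again near 3 reads in the TCR samples. Of all genes 0.499% were called higher there. With MEKi Gbp5 was called higher than with TCR alone, at 16.9, 11.7 and 14.1 FPKM beside 4.95, 3.77 and 4.73 FPKM (log2 difference 1.64, SE 0.16, limma adjusted p = 3.21e-06). Gbp2, in the same cluster on chromosome 3, was at 0.05 in that comparison. None of the 13 was called between the inhibitor groups, where Gbp5 differed by 0.94 (SE 0.16, limma adjusted p = 0.000617).

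Ifng, the gene of the ligand, rose after TCR while Ifngr2 and Irf1 fell. Ifng was at 72.4 ± 3.3 FPKM in Unstimulated and 29597 ± 1379 in TCR samples, and 20159 ± 1125 with PI3Kdi and 16617 ± 1427 with MEKi. Of the 19 genes for interferon gamma, interferon receptors and their signal, all had a row, 3 were called higher after TCR (Ifng, Jak2 and Irf8) and 7 lower (among them Ifngr1, Ifngr2, Ifnar2, Irf1, Socs1 and Usp18), with a median of -0.52. Over all 11022 genes 978 were called higher and 1224 (11.1%) lower. Ifngr2, a chain of the interferon gamma receptor, fell from 3.85 ± 0.47 to 0.56 ± 0.24 FPKM (log2 difference -2.64, SE 0.26, limma adjusted p = 4.48e-07). Irf1 was at 56.6, 50.8 and 56.1 FPKM in Unstimulated samples, 12, 11.8 and 13.4 after TCR, 16.3, 14.1 and 14.8 with PI3Kdi, and 16.3, 16.4 and 16.2 with MEKi (-2.12, SE 0.07, limma adjusted p = 2.09e-12). Irf1 thus stood at 22.9% of its unstimulated level after TCR, and it was not called between the inhibitor groups or between an inhibitor group and TCR. Irf8, a transcription factor of the same family as Irf1, rose from 84.6 ± 2.6 to 409 ± 13.8 FPKM.

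Socs1, which blocks the JAK kinases, fell from 79.5 ± 4.5 FPKM in Unstimulated to 24.3 ± 3.1 in TCR samples (log2 difference -1.71, SE 0.12) and was at 18.4, 12.3 and 16.8 FPKM with PI3Kdi and 46.3, 46.1 and 51.7 FPKM with MEKi. The inhibitor groups did not overlap, and the difference of MEKi from PI3Kdi was 1.62 (SE 0.12, limma adjusted p = 2.61e-07). Among the 19 genes Ifngr1 was called higher with PI3Kdi than with TCR, Stat3 and Usp18 were called higher and Jak2 lower with MEKi than with TCR, and Socs1 and Usp18 were called higher with MEKi than with PI3Kdi.

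Other interferon-responsive genes gave mixed counts after TCR. Of 33 genes mainly induced by type I interferon 27 had a row, 14 were called lower and 3 higher, with a median of -1. For comparison, 1224 of all 11022 genes were called lower and 978 higher. Oas3, a sensor of double-stranded RNA, fell from 26.2 ± 0.24 to 6.78 ± 0.85 FPKM, Dtx3l from 22.5 ± 1.1 to 6.22 ± 0.6 and Irf7 from 11 ± 0.2 to 3.18 ± 0.52, whereas Ifih1, which encodes the RNA sensor MDA5, rose from 1.76 ± 0.12 to 8.53 ± 0.76. None of these 27 was called with PI3Kdi against TCR, where 207 of all 11022 genes were. With MEKi against TCR 1, Ifih1, was lower (log2 difference -1.59, SE 0.12, limma adjusted p = 2.29e-07), beside 277 of all genes. Of 5 other interferon-inducible GTPases only Mx1 had a row, and it fell from 22.3 ± 2.4 to 7.43 ± 0.63 FPKM (-1.57, SE 0.11).

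Of 24 genes of the interferon gamma response outside the GTPases 20 had a row, 5 were called lower and 6 higher after TCR, with a median of -0.37. Among all 11022 genes these counts were 1224 lower and 978 higher. Fgl2, a secreted immunoregulatory protein, fell from 243 ± 11.1 to 19.8 ± 3.9 FPKM, while the caspase gene Casp4 rose from 4.11 ± 0.36 to 28 ± 2.6, the serpin gene Serpina3g from 16.5 ± 1.2 to 109 ± 5.5 and Cd74, the invariant chain of MHC class II, from 1.35 ± 0.7 to 7.22 ± 0.59 FPKM. Cd74 was called lower with PI3Kdi than with TCR (log2 difference -1.68, SE 0.30, limma adjusted p = 0.000974). Of 16 factors that load IRG and GBP proteins onto vacuoles or work with them there, 15 had a row, with a median of 0.05. The autophagy receptor gene Sqstm1 rose from 114 ± 2.9 to 276 ± 13.1 FPKM and Gabarapl1, of the ubiquitin-like family used in loading, from 29.8 ± 2.1 to 61.3 ± 2.1, Trim21, a ubiquitin ligase, fell from 8.72 ± 0.27 to 4.29 ± 0.11, and 12 were not called. The calls of this list after TCR stand beside the 978 higher and 1224 lower of all genes given above. None of the 15 was called between an inhibitor group and TCR, where 207 (PI3Kdi) and 385 (MEKi) of all 11022 genes were. A list of this size could hold none at such shares.

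The genes whose pattern over the 12 samples lay nearest to the median member were found by the root mean square difference of log2 values centred on the Unstimulated mean, among 10222 genes that reached a mean of 1 FPKM in a group. Among the nearest 10 were Clspn, a replication checkpoint protein, and Fam78a (both 0.10), Zfp36l2, an mRNA decay factor (0.11), F2r, the thrombin receptor, and Chaf1b, a chromatin assembly factor (both 0.13), Fam111a (0.14), Cep164, a centriole protein, and Zfp652 (both 0.15), and Irf1 (0.16). Members themselves lay at 0.15 (Igtp) to 1.75 (Gbp3) from that median, with Gbp2 at 0.98 and Iigp1 at 1.20. Clspn was at 20.2 FPKM in Unstimulated, 4.3 in TCR, 6.65 in PI3Kdi and 6.21 in MEKi samples.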

How the data were processed

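Libraries were made with the TruSeq Stranded mRNA kit and sequenced as paired 100-base reads. Per the study's methods and the submitters' processing notes, the authors aligned reads to mm10 with STAR 2.4.2a, counted them per gene with Subread 1.5.0, removed genes with low counts (filterByExpr) and deposited FPKM computed with edgeR from TMM-normalised counts. Use of the strand in counting was not given in the sources used here. Counts were not used here. Depth was estimated as the value, within a preset range, that put low FPKM values nearest to whole read numbers. In each sample 50% to 71.6% of these values came within 0.15 of a whole read number, too few to recover reads. Evenly spread values would give 30%, but the depth was chosen to fit these same values, so 30% is not the chance level. The highest depth, of Unstimulated replicate 3, came with the lowest share (50%). Between 2 and 73 genes per sample were at 0. Value columns without a sample numbered 0. The columns were assigned by their headers, and samples were grouped by source name, treatment and replicate number in the labels.

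All 11022 genes were fitted as log2(FPKM + 0.1) with 1 mean per group over the 12 samples in limma 3.58.1 (R 4.3.3, eBayes with an intensity trend), without a replicate term, and p values were adjusted by Benjamini-Hochberg over all genes. Differences are on this scale, which understates changes of low genes. The members and all gene lists were chosen with earlier results of these data known. Of the pathway lists, at most the 4 genes called in any comparison with the largest difference of TCR from Unstimulated were named, with Ifng, Irf1 and Socs1 always, and 1 gene that this rule names is not reported here. Samples named as biological replicates came from 3 mice, and whether equal numbers mean the same mouse is not stated. Deviations of same-numbered samples from their group means correlated, over 9899 genes, at 0.45, 0.38 and 0.24 between TCR and TCR + PI3Kdi, 0.12 to 0.18 between TCR and TCR + MEKi, 0.14 to 0.15 between the inhibitor groups and 0.12 to 0.15 between Unstimulated and TCR + MEKi. They were 0.1, 0.15 and 0.0 between Unstimulated and TCR, and 0.01, 0.11 and -0.06 between Unstimulated and TCR + PI3Kdi. Differently numbered samples were not correlated for comparison, so whether the numbers pair the samples stayed undecided. Alternatives were the replicate block, a pseudocount of 0.01 or 1, removal of genes whose mean was under 1 FPKM, a common FPKM sum, quantile normalisation, the compared groups alone, no intensity trend, no fold threshold, limma treat and leaving out each replicate. The fit was tested on simulated data with 200 of 11022 genes changed 4-fold between TCR and Unstimulated, of which 98.5% were recovered with 3 false calls. Changes near the fold threshold and effects of the replicate number were not simulated, so calls near that threshold were not tested by it.

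Positions and shared 100-base stretches are from GENCODE M21 on GRCm38, in which all 10 members were matched, and promoters from RefSeq (GRCm38.p6), which had 8 of the 10. Python 3.11.15 with NumPy 2.4.6, pandas 2.3.3 and Matplotlib 3.10.9 was used.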

Additional observations from a re-analysis of the deposited data

Results flagged for a closer look

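Irgm1 was flagged because every TCR + PI3Kdi sample lay above every TCR sample and every TCR + MEKi sample lay below, with a log2 difference of MEKi from PI3Kdi of -0.83. The difference was not tested, since the gene was chosen with its values known, and on the common FPKM sum the TCR + MEKi and TCR samples overlapped (log2 difference -0.18 instead of -0.44). Socs1 was flagged because its responses to the inhibitors, both taken against the same TCR samples, differed by 1.62 on the log2 scale, with all 3 MEKi samples higher. The limma adjusted p of this difference (2.61e-07) is what flagged the gene, and its list was chosen with earlier results known, so it is not independent evidence.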

How the results depend on the processing

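Members called lower in TCR against Unstimulated stayed at 9 with the replicate block and at 8 to 9 in all alternatives, and the block gave 2, 0, 2, 8 and 9 members in the other comparisons, with no member call changed. The count in TCR + PI3Kdi against TCR (2) was 4 on the common FPKM sum, 8 without the fold threshold, 0 with limma treat against 2-fold and 1 to 4 when leaving out a replicate. TCR + MEKi against TCR (0) gave 4 without the fold threshold, where 4090 of 11022 genes passed. TCR + MEKi against TCR + PI3Kdi (2) gave 1 on the common FPKM sum, 6 without the fold threshold, 0 with treat and 1 to 3 when leaving out a replicate. The members' median moved by more than the replicate spread only on the common FPKM sum, to -2.62, 0.41, -1.86 and -1.94 for TCR against Unstimulated, TCR + MEKi against TCR, and PI3Kdi and MEKi against Unstimulated. Counts over all genes in the order TCR against Unstimulated, PI3Kdi against TCR, MEKi against TCR, MEKi against PI3Kdi, PI3Kdi against Unstimulated and MEKi against Unstimulated were 1405, 90, 201, 150, 979 and 873 with a pseudocount of 1, 7559, 2818, 4090, 3185, 6887 and 6571 without the fold threshold, and 1174, 27, 106, 64, 803 and 739 with treat. On the common FPKM sum 647 genes were higher and 2276 lower in TCR against Unstimulated, instead of 978 and 1224, 119 and 107 in PI3Kdi against TCR instead of 55 and 152, 323 and 202 in MEKi against TCR instead of 108 and 277, 197 and 166 in MEKi against PI3Kdi instead of 153 and 188, 623 and 1272 in PI3Kdi against Unstimulated instead of 789 and 819, and 660 and 1003 in MEKi against Unstimulated instead of 766 and 712, and Irgq turned from 0.09 to -0.30 there, not called. Of the 10 genes nearest the median member, 10 were kept on the common FPKM sum and 7 with a pseudocount of 1. Depth was estimated, not known, and limits genes near 3 reads (0.226 to 0.382 FPKM for 1 kb of exon), such as Gm4841.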
